A study of Mus musculus with 78 samples.

Results

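The transcripts of 7 genes that mark lymphatic or venous endothelium were followed through a mouse model of VEGF-A-driven vessel growth in the skin. The lymphatic genes were Prox1, Lyve1, Pdpn, Mmrn1 and Reln, and the venous genes were Nr2f2 and Ephb4. They were taken by name: every probe set on the array whose only annotated gene symbol was one of these 7 was used, which gave 17 probe sets among 34958 with 1 symbol, and 7 genes among 18194. Of the 17 probe sets, 12 passed a filter on low signal and every gene kept at least 1. RNA came from flank skin of female athymic nude mice (Crl:NU(NCr)-Foxn1nu, strain #490, 4 to 6 weeks old). An adenovirus that carries VEGF-A164 (Ad-VEGF-A164) had been injected into that skin, and the ears of the same mice were injected as well. The G6 groups also received the antibody G6 at 10 mg per kg into the peritoneum, and the DC101 groups received 20 mg per kg of DC101, which is known to block VEGFR2 of the mouse. Untreated groups received the virus without antibody. Each of these 3 treatments was sampled at days 5, 20 and 60, and control tissue, titled normal, was labelled day 0. Every group held 8 arrays except DC101 at day 60, which held 6, for 78 arrays in 10 groups. The text on treatment counts both antibodies among those against VEGF receptors and gives G6 no target of its own, and the labels do not say whether a day counts from injection or from treatment. No group with an empty vector was analysed here, and the labels do not say what was done to control flank. Nude mice lack a normal thymus and T cells, so all groups, control included, share that background.

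Lymphatic endothelium arises from veins. The nuclear receptor COUP-TFII, the product of Nr2f2, sets venous identity, and the homeobox factor Prox1, which lymphatic endothelial cells need to acquire and keep their identity, is switched on in part of the venous wall. VEGF-C acts through VEGFR3, the product of Flt4, to drive lymphatic sprouting, while VEGF-A acts on blood vessels mainly through VEGFR2 and can also enlarge lymphatic vessels in skin. Several of the genes are used by other cells too: Lyve1 by resident tissue macrophages, Pdpn by fibroblasts and basal keratinocytes, Reln by neurons, and Nr2f2 by stromal cells.

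The start regions of 4 of these genes are shown because the results turn on them most: Prox1 and Mmrn1 tracked each other across all arrays, and Pdpn and Reln were both low in untreated tissue at day 5. Each run is 300 bases read on the gene's own strand, the last 50 of them after the gene's start, from RefSeq on GRCm38.p6. Entries were matched for 6 of the 7 genes, all but Lyve1, and Prox1, which had 2 entries, is shown at its outermost start. The regions are chr1:190170778-190171077 on the minus strand for Prox1, chr6:60944067-60944366 on the plus strand for Mmrn1, chr4:143299515-143299814 on the minus strand for Pdpn and chr5:22344656-22344955 on the minus strand for Reln. Capitals mark matches on either strand to 3 short motifs: AGGTCA, the half-site of many nuclear receptors, AACAAT, a core that SOX factors bind, and CCGGAA, a core of ETS factor sites.
Prox1: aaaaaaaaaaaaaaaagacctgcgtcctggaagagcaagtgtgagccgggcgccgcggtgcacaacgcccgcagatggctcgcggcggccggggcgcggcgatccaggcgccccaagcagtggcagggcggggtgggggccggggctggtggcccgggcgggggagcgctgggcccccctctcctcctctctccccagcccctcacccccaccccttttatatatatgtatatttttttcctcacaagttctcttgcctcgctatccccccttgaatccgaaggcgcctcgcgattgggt
Mmrn1: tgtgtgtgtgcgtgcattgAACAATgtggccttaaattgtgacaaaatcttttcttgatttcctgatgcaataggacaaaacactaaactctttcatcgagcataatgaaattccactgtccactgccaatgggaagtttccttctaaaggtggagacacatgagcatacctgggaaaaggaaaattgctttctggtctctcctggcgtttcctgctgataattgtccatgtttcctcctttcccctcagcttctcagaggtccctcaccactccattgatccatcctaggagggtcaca
Pdpn: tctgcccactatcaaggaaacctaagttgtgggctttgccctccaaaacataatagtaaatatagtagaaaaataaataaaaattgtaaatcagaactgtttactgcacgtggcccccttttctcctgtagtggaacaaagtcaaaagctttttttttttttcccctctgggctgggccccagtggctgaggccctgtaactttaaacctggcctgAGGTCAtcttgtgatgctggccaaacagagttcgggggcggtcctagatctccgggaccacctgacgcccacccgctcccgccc
Reln: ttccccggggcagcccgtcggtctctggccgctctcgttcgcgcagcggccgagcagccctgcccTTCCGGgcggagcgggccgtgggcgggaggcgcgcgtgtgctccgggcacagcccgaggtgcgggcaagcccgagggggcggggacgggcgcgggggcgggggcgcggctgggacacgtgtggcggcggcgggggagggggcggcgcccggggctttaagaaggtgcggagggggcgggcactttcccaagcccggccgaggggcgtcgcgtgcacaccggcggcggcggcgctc
Pdpn held AGGTCA at position -34 from the start, Mmrn1 held AACAAT at -231, and Reln held CCGGAA on the opposite strand at -185. No match overlapped another. Of 32851 promoters of this length, 16.3% held AGGTCA, 10.7% held AACAAT and 14.9% held CCGGAA, and none of the 3 motifs was found in the windows of Prox1, Nr2f2 or Ephb4. G and C made up 64.3% of the Prox1 window, 44.3% for Mmrn1, 48.7% for Pdpn and 80.7% for Reln, beside a median of 52.7% over all promoters. No 2 of these genes had a motif of the 3 in common in these windows, which says nothing of the factors themselves.

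Values are MAS5 signals, a brightness on a linear scale, given here as log2(signal + 16). The median signal of an array ran from 454.85 to 582.58. Differences were tested in 1 limma fit over all 10 groups with Benjamini-Hochberg adjustment over 26696 probe sets, and an adjusted p under 0.05 is called. Each gene is given by its brightest probe set unless another is named. Levels of the marker lists are means over their genes of log2(signal + 16). Genes of keratinocytes (11 tested) averaged 11.04 to 13.22 and of skeletal muscle (12 tested) 15.15 to 16.47 on the control arrays, so markers of skin and of its muscle layer were present. Genes of mammary epithelium (8 tested) averaged 9.98 to 13.42 on control arrays and at most 10.74 on any array of the injected groups, and the part of this difference in the members' comparisons with control was not tested. Some arrays, named by the running numbers in their titles, stood apart in these genes. Control arrays 95 and 96 were high in Lyve1, G6 day 60 arrays 86, 87 and 88 were high in Prox1 and Mmrn1, and untreated day 20 arrays 51 and 52 were the 2 highest of their group in Lyve1 and Ephb4. Results that rest on them are given with and without them. Which animal gave which array is not stated. The p-values measure the spread between arrays only, and are too small wherever an animal gave more than 1.

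**Figure D1:**
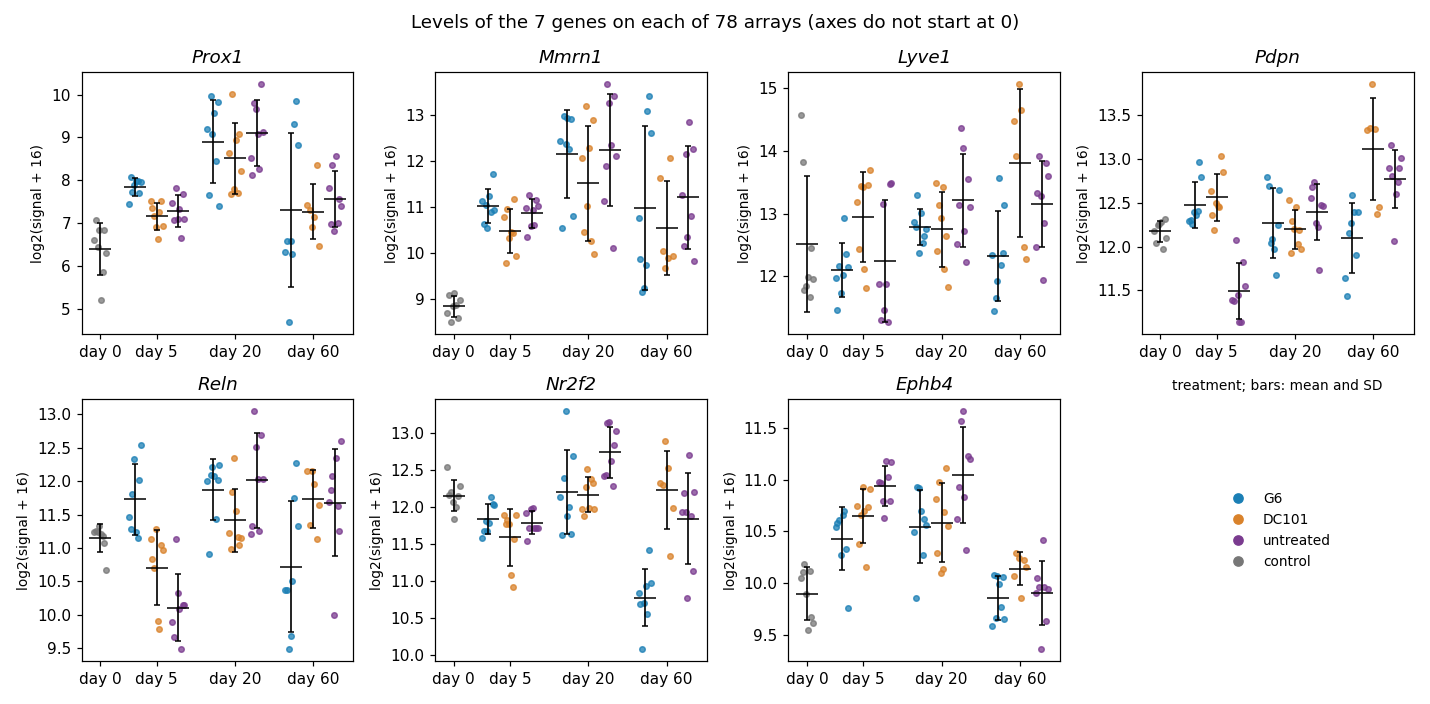
Level of each gene, as log2(signal + 16), on every array by day; points are arrays, colours are treatments (G6, DC101 and untreated from left to right within a day, control at day 0), and bars give the group mean and SD. Mmrn1 was above all 8 control arrays in every injected group, Prox1 and Mmrn1 were highest at day 20, and the untreated day 5 arrays were low in Pdpn and Reln.

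Untreated tissue was set against control to see how these genes stood as the virus-induced vessels formed and aged. Mmrn1, which encodes multimerin 1, a secreted protein of lymphatic endothelium and platelets, was higher at all 3 days. On untreated arrays it ran from 10.35 to 11.26 (median 10.95) at day 5, from 10.10 to 13.67 (12.22) at day 20 and from 9.82 to 12.85 (11.03) at day 60, against 8.50 to 9.13 (8.86) on control arrays. Every untreated array lay above every control array, and the spread at days 20 and 60 was much wider than at day 5. The differences were 2.02 (SE 0.48, adjusted p = 0.00032), 3.39 (SE 0.48, adjusted p = 5.4e-08) and 2.36 (SE 0.48, adjusted p = 0.00010) in log2. In bulk tissue such a difference cannot be told apart between more cells of a type and more RNA in each cell.

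Prox1, the lymphatic identity factor, followed the same course at a much lower signal. It ran from 6.66 to 7.81 (median 7.22) at day 5, from 8.12 to 10.25 (9.10) at day 20 and from 6.81 to 8.56 (7.48) at day 60 on untreated arrays, against 5.21 to 7.07 (6.53) on control arrays. Only at day 20 did the groups not overlap. No control array and no untreated day 5 array reached the filter level (a signal of 331), whereas 6 of 8 untreated arrays did at day 20. Of the 20 arrays above that level in Prox1, 6 untreated, 6 G6 and 4 DC101 arrays were of day 20. Prox1 was thus tested because of the groups where it was high, so this count is no separate support for its rise. Prox1 rose by 2.70 (SE 0.41, adjusted p = 2.4e-07) at day 20, which is at least 1.58-fold when the control is set to the filter level. At day 5 it differed by 0.88 (SE 0.41, adjusted p = 0.070) and was not called, with 8 of 8 arrays above the control mean. It stayed uncalled when any 1 of the 16 arrays was left out (adjusted p from 0.053 to 0.16). The same held with other pseudocounts, no filter, quantile normalization, brightest or averaged probe sets, and adjacent arrays averaged. It was called with the RNA integrity ratios of each array as covariates (1.32, adjusted p = 0.023), with array weights (adjusted p = 0.023) and with only these groups in the fit (adjusted p = 0.018). Its day 60 difference was 1.16 (SE 0.41, adjusted p = 0.023), a call that was lost without control array 99 or without untreated array 75 or 77. With the RNA ratios the day 60 difference was not called (adjusted p = 0.063).

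Of the 7 genes, 4 were called at day 5, 2 higher and 2 lower, where 52.4% of all genes were called, 27.7% higher and 24.7% lower. At day 20 there were 5, all higher, beside 40.5% of all genes (22.4% higher), and at day 60 there were 3, all higher, beside 35% of all genes (18.3% higher). The groups did not overlap for 2 members at day 5 (25.7% of all genes), 3 at day 20 (10.3%) and 1 at day 60 (6.23%). The median difference over the 7 genes was -0.27 at day 5, 0.86 at day 20 and 0.60 at day 60, beside medians over all genes of 0.05, 0.05 and 0.08. Within untreated tissue, day 20 against day 5 gave 5 higher members (19.8% of all genes called, 10.3% higher) and day 60 against day 20 gave 3 lower ones (24.8%, 13.3% lower). The groups did not overlap for 3 members in day 20 against day 5 (7.4% of all genes) and for 0 in day 60 against day 20 (2.99%). Prox1 was 1.83 higher at day 20 than at day 5 (SE 0.41, adjusted p = 0.00073) and fell by 1.54 at day 60 against day 20 (SE 0.41, adjusted p = 0.0038). Mmrn1 was 1.38 higher at day 20 than at day 5 (SE 0.48, adjusted p = 0.035), but 0.97 (adjusted p = 0.20) without arrays 51 and 52. That call was also lost with the RNA ratios as covariates (0.92, adjusted p = 0.28), with adjacent arrays averaged (adjusted p = 0.053) and without any 1 of 7 arrays. Day 60 differed from day 20 by -1.03 (adjusted p = 0.12) in Mmrn1.

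Of the venous genes, Ephb4 was higher at days 5 and 20 and Nr2f2 at day 20, and neither was called at day 60 by its brightest probe set. Ephb4, the receptor for ephrin-B2 that venous endothelium carries, ran from 10.63 to 11.18 (median 10.97) at day 5, from 10.32 to 11.66 (11.06) at day 20 and from 9.36 to 10.42 (9.95) at day 60 in untreated tissue, against 9.54 to 10.19 (9.97) in control tissue. No untreated array of day 5 or 20 overlapped with control, while the day 60 arrays spanned the control range. The differences were 1.04 (SE 0.15, adjusted p = 2.4e-08) at day 5, 1.15 (SE 0.15, adjusted p = 9.0e-09) at day 20 and 0.00 (95% interval -0.30 to 0.31) at day 60. Efnb2, which encodes ephrin-B2, the arterial ligand of this receptor, stood at 13.83 ± 0.23 at day 5, 13.30 ± 0.22 at day 20 and 12.98 ± 0.52 at day 60 in untreated tissue and at 11.99 ± 0.55 in control tissue (SD, n = 8 each), and still differed by 0.98 (SE 0.24, adjusted p = 0.0011) at day 60.

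Nr2f2, the COUP-TFII gene, ran from 11.54 to 11.99 (median 11.72) at day 5, from 12.28 to 13.15 (12.73) at day 20 and from 10.77 to 12.70 (11.93) at day 60 in untreated tissue, against 11.84 to 12.54 (12.15) in control tissue. By this probe set it was called at day 20 alone, with a difference of 0.58 (SE 0.19, adjusted p = 0.012), while days 5 and 60 gave -0.37 (adjusted p = 0.11) and -0.31 (adjusted p = 0.21). Without untreated arrays 51 and 52 the day 20 difference was 0.45 (adjusted p = 0.090). The brightest probe set gave the smallest of the 5 day 20 differences. The other 4 that passed the filter gave 0.93, 1.02, 1.60 and 1.73 for Nr2f2, all called in the same fit. At day 60 these 4 gave -0.06 to 0.57, and the highest was called (SE 0.22, adjusted p = 0.039), opposite in sign to the brightest. None of the 4 was called at day 5 (-0.13 to 0.55, adjusted p from 0.078 to 0.71). Day 60 stood 0.90 below day 20 in untreated tissue (SE 0.19, adjusted p = 0.00028).

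Pdpn and Reln were low at day 5 and not later. Pdpn encodes podoplanin, a membrane glycoprotein of lymphatic endothelium that engages CLEC-2 on platelets. It ran from 11.14 to 12.08 (median 11.42) at day 5, from 11.74 to 12.74 (12.47) at day 20 and from 12.06 to 13.16 (12.85) at day 60 on untreated arrays, against 11.97 to 12.31 (12.21) on control arrays. At day 5 only array 3 reached the control range. Pdpn fell by 0.68 (SE 0.16, adjusted p = 0.00040) at day 5, gave 0.22 (adjusted p = 0.30) at day 20 and rose by 0.60 (SE 0.16, adjusted p = 0.0035) at day 60. Fibroblasts also express Pdpn, and 4 of 12 fibroblast genes were higher and 6 lower at day 5, 5 higher at day 20 and 4 higher at day 60.

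Reln encodes reelin, a large secreted glycoprotein that lymphatic endothelium releases as well as neurons. It ran from 9.48 to 11.14 (median 10.11) at day 5, from 11.21 to 13.05 (12.03) at day 20 and from 9.99 to 12.59 (11.78) at day 60 in untreated tissue, against 10.67 to 11.33 (11.22) in control tissue. At day 5 again only array 3 entered the control range, and at day 20 all 8 arrays lay above the control mean. Reln fell by 1.04 (SE 0.30, adjusted p = 0.0023) at day 5 and rose by 0.86 (SE 0.30, adjusted p = 0.016) at day 20, a call that was lost without array 51 (adjusted p = 0.057), and differed by 0.53 (adjusted p = 0.16) at day 60. Schwann cell genes, which mark nerve in skin, were lower in 4 of 5 at day 5 and higher in 1 of 5 at day 20. Their mean level was 9.51 to 10.59 in untreated tissue at day 5, against 10.38 to 11.17 in control tissue, and its part in the Reln difference was not tested.

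Lyve1 encodes a hyaluronan receptor of lymphatic endothelium and of resident macrophages. It ran from 11.28 to 13.49 (median 11.88) at day 5, from 12.22 to 14.37 (13.13) at day 20 and from 11.94 to 13.92 (13.31) at day 60 in untreated tissue, against 11.67 to 14.57 (11.98) in control tissue. Control arrays 95 and 96 stood at 14.57 and 13.82, and no other control array was above 12.45. Lyve1 was called at none of the 3 days with all arrays, the differences being -0.27, 0.70 and 0.64 (adjusted p from 0.14 to 0.58). Without arrays 95 and 96, a choice made after the values were seen, it was higher by 1.26 (adjusted p = 0.0050) at day 20 and by 1.20 (adjusted p = 0.010) at day 60. The mean level of 14 macrophage genes was also highest on those 2 control arrays, 13.07 and 12.55, against at most 12.21 on the other 6. The number of these macrophage genes that rose in untreated tissue was 12 at day 5, 7 at day 20 and 10 at day 60, and their part in the Lyve1 values was not tested.

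**Figure D2:**
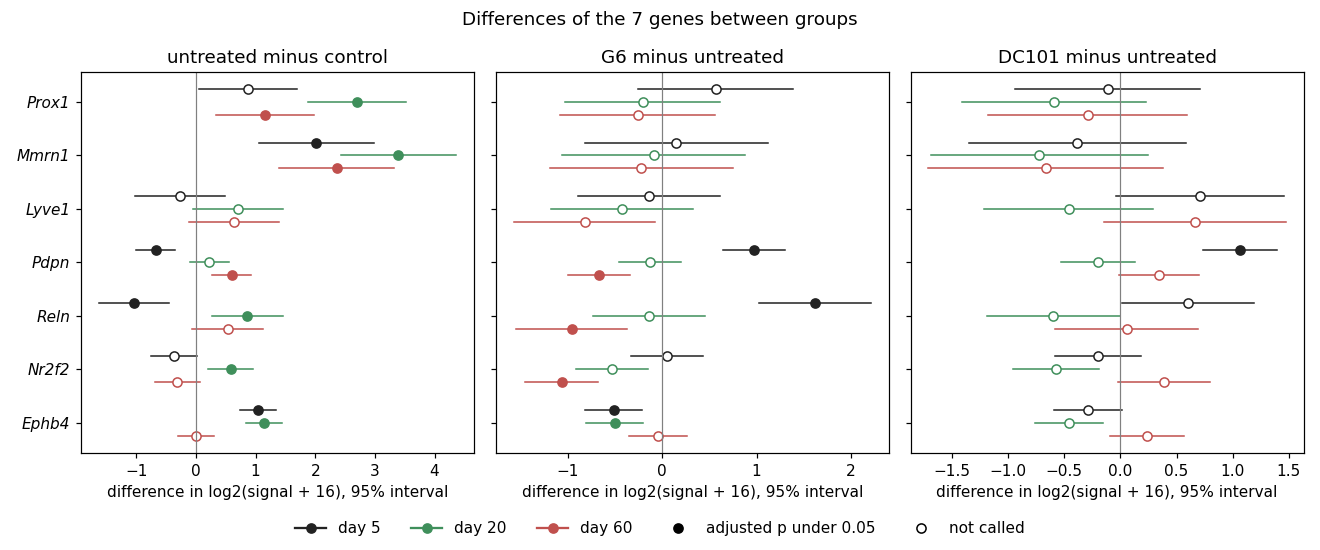
Difference in log2(signal + 16) for each gene and day, with 95% intervals, for untreated minus control, G6 minus untreated and DC101 minus untreated; filled points have an adjusted p under 0.05. Prox1 and Mmrn1 stood high in untreated tissue and had no filled point for either antibody, while Pdpn and Reln moved in opposite directions at day 5 in the first and second panels. Those panels share the untreated arrays, so a low untreated level by itself pulls their differences in opposite directions.

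Other genes of lymphatic growth were examined from a list of 6 genes for the VEGF-C axis, of which 4 rose and none fell at days 5 and 20. At day 5 Flt4, the VEGFR3 gene, rose by 3.08 (SE 0.34, adjusted p = 6.1e-12), Vegfc by 1.42 (SE 0.27, adjusted p = 1.0e-05) and Ccbe1, whose product helps to process VEGF-C, by 1.75 (SE 0.49, adjusted p = 0.0021). At day 60 only 1 of the 6 was called, Nrp2, a VEGF-C co-receptor, at 0.76 (SE 0.22, adjusted p = 0.0061). Flt4 averaged 12.65 ± 0.25 at day 5, 12.21 ± 0.86 at day 20 and 10.36 ± 0.72 at day 60 in untreated tissue and 9.57 ± 0.26 in control tissue (SD, n = 8 each), so its highest untreated mean was at day 5, whereas those of Prox1 and Mmrn1 were at day 20. Flt4 is also carried by sprouting blood endothelium, and all 18 pan-endothelial genes tested rose at day 5.

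Of 10 genes of lymphatic transcription and valves tested, 6 rose at day 5 and 6 at day 20, none fell, and at day 60 2 rose and 2 fell. Sox18, which acts before Prox1 in the developing lymphatic line, rose by 2.79 at day 5 (SE 0.28, adjusted p = 5.4e-13) and by 2.66 at day 20 (SE 0.28, adjusted p = 2.1e-11). Foxc2, a factor of lymphatic valves, rose by 1.94 (SE 0.33, adjusted p = 1.2e-06) at day 5. Of 12 lymphatic surface and chemokine genes, 4 rose and 1 fell at day 5, 8 rose at day 20, and 6 rose and 1 fell at day 60. The gene that fell at day 5 was Ackr2, a chemokine-scavenging receptor of lymphatic endothelium, by 2.00 (SE 0.35, adjusted p = 1.4e-06). Venous and venular genes were divided at day 5, with 6 of 14 higher and 6 lower. Among those that rose were Emcn, the sialomucin endomucin (2.71, SE 0.33, adjusted p = 1.2e-10), and Plvap, a protein of endothelial fenestrae and caveolae (2.23, SE 0.27, adjusted p = 1.4e-10). As many genes of the list fell, so these 2 do not stand for the list.

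Antibody-treated tissue was set against untreated tissue of the same day to see how the members differed when VEGF signalling was targeted. G6 and DC101 share the untreated arrays of each day, so their differences are given side by side only. At day 5, 3 members were called with G6, 2 higher and 1 lower (31.6% of all genes called, 16.6% higher and 14.9% lower), and 1 with DC101, higher (11.8%, 4.67% higher and 7.1% lower). Groups did not overlap for 2 members with G6 (12.2% of all genes) and for 1 with DC101 (3.5%).

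Pdpn was higher with both antibodies at day 5. It ran from 12.26 to 12.97 (median 12.38) with G6 and from 12.19 to 13.03 (12.48) with DC101, against 11.14 to 12.08 (11.42) untreated. No array of either antibody overlapped with the untreated arrays. The differences were 0.98 (SE 0.16, adjusted p = 3.5e-06) with G6 and 1.06 (SE 0.16, adjusted p = 2.8e-06) with DC101, and G6 differed from DC101 by -0.09 (95% interval -0.41 to 0.24). These levels lay 0.30 (adjusted p = 0.14, G6) and 0.39 (adjusted p = 0.050, DC101) above control, and the DC101 call was lost without any 1 of 13 arrays. Fibroblast genes rose in 5 of 12 with G6 and 4 of 12 with DC101, with mean levels of 14.48 to 15.03 with G6 and 13.48 to 15.11 with DC101, against 13.76 to 14.86 untreated. Keratinocyte genes rose in 4 of 11 with G6 and 0 of 11 with DC101, and averaged 14.34 ± 0.65 with G6 and 13.89 ± 0.55 with DC101, against 13.37 ± 0.44 untreated (SD, n = 8 each). Their part in the Pdpn difference was not tested.

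Reln was higher with G6 at day 5. It ran from 11.14 to 12.54 (median 11.64) with G6 and from 9.79 to 11.28 (10.90) with DC101, against 9.48 to 11.14 (10.11) untreated. The G6 arrays lay above all untreated arrays, while DC101 arrays fell within both ranges. The differences were 1.62 (SE 0.30, adjusted p = 1.6e-05) with G6 and 0.60 (SE 0.30, adjusted p = 0.18) with DC101. G6 exceeded DC101 directly by 1.02 (SE 0.30, adjusted p = 0.012), the only member called between the antibodies at day 5, where 12.3% of all genes were called (6.34% higher and 5.95% lower). The groups overlapped for all 7 members, beside 2.16% of all genes without overlap. That call was lost when adjacent arrays were averaged. Schwann cell genes rose in 3 of 5 with G6 and in 3 of 5 with DC101, with mean levels of 10.36 to 11.95 with G6 and 9.66 to 11.05 with DC101, against 9.51 to 10.59 untreated. S100b, a Schwann cell gene that is also among the 3 genes closest to Reln over all arrays, rose by 2.04 with G6 (SE 0.32, adjusted p = 6.3e-07). Its closeness to Reln was measured on these same arrays, so its rise is not independent of that of Reln. The part of Schwann cell genes in the Reln difference was not tested.

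Ephb4 was lower with G6 at day 5, from 9.76 to 10.69 (median 10.56) with G6 and from 10.15 to 10.93 (10.71) with DC101, against 10.63 to 11.18 (10.97) untreated. All 8 arrays of each antibody lay below the untreated mean. The differences were -0.51 (SE 0.15, adjusted p = 0.0069) with G6 and -0.29 (SE 0.15, adjusted p = 0.21) with DC101, and -0.22 (adjusted p = 0.37) for G6 against DC101. Ephb4 still exceeded control by 0.53 (adjusted p = 0.0034) with G6 and by 0.75 (adjusted p = 3.9e-05) with DC101. Of 18 pan-endothelial genes 17 fell with G6 at day 5 and 2 with DC101, and Flt4 fell by 1.77 with G6 (SE 0.34, adjusted p = 3.3e-05).

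The pair Prox1 and Mmrn1 was not called with either antibody at any day. At day 5 Mmrn1 averaged 11.01 ± 0.37 with G6 and 10.48 ± 0.48 with DC101, against 10.86 ± 0.31 untreated (SD, n = 8 each). The G6 difference was 0.15 with a 95% interval of -0.81 to 1.12, which takes in a rise of 1 log2 unit in Mmrn1 but not a fall of that size. Prox1 averaged 7.85 ± 0.21 with G6 and 7.16 ± 0.32 with DC101, against 7.28 ± 0.37 untreated, all below the filter level. The Prox1 difference with G6 was 0.57 (adjusted p = 0.31). Lyve1 gave -0.14 with G6 and 0.71 with DC101 (adjusted p = 0.82 and 0.22). Nr2f2 gave 0.05 with G6 and -0.20 with DC101 by its brightest probe set (adjusted p = 0.87 and 0.56). Its dimmest tested probe set fell by 1.09 with G6 (SE 0.27, adjusted p = 0.0010), so the probe sets of Nr2f2 disagreed in this comparison.

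At day 20, G6 against untreated gave 1 called member, lower (9.18% of all genes called, 3.54% higher and 5.63% lower), and DC101 gave 0 (7.12%, 2.21% higher and 4.91% lower), with 3 members at an unadjusted p under 0.05 in the limma fit for DC101. No member's groups were free of overlap with G6 (0.129% of all genes) or with DC101 (0.34%). Ephb4 ran from 9.86 to 10.93 (median 10.59) with G6 and from 10.10 to 11.11 (10.62) with DC101, against 10.32 to 11.66 (11.06) untreated. It was lower by 0.50 with G6 (SE 0.15, adjusted p = 0.029) and differed by -0.46 with DC101 (SE 0.15, adjusted p = 0.052). Without untreated arrays 51 and 52 the G6 difference was -0.31 (adjusted p = 0.40), and leaving out any of arrays 51, 52, 55, 56, 58 and 62 alone ended the call. Nr2f2 differed by -0.53 with G6 (adjusted p = 0.070) and by -0.57 with DC101 (adjusted p = 0.055). Its second brightest probe set was called for both, at -0.80 (adjusted p = 0.036) with G6 and -0.81 (adjusted p = 0.039) with DC101.

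Mmrn1 at day 20 averaged 12.15 ± 0.95 with G6 and 11.51 ± 1.24 with DC101, against 12.24 ± 1.22 untreated (SD, n = 8 each). Prox1 averaged 8.90 ± 0.97 with G6 and 8.51 ± 0.82 with DC101, against 9.10 ± 0.77 untreated. No antibody difference was called for either gene (adjusted p from 0.40 to 0.94). Over the same arrays 15 of 18 pan-endothelial genes fell with G6 and 11 with DC101. Between G6 and DC101 at day 20, 0 members were called, and 0 had an unadjusted p under 0.05 in the limma fit, beside 0.306% of all genes called and 0.034% without overlap.

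The change in antibody difference between days 5 and 20 was tested directly. Pdpn changed by -1.10 with G6 (SE 0.23, adjusted p = 0.0016) and by -1.26 with DC101 (SE 0.23, adjusted p = 0.00046), and Reln changed by -1.76 with G6 (SE 0.42, adjusted p = 0.0048). In all, 2 members changed with G6 (9.19% of all genes called, 5.12% lower) and 1 with DC101 (1.91%, 0.959% lower). The untreated level of each gene was itself higher at day 20 than at day 5, by 0.90 for Pdpn (SE 0.16, adjusted p = 3.6e-05) and 1.90 for Reln (SE 0.30, adjusted p = 1.8e-06). With antibody the levels of the 2 days were close: with G6, Pdpn averaged 12.27 ± 0.40 at day 20 and 12.47 ± 0.26 at day 5, and Reln averaged 11.87 ± 0.46 at day 20 and 11.73 ± 0.53 at day 5 (SD, n = 8 each).

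At day 60 the G6 arrays were lower than untreated or DC101 arrays in 4 members. Against control, only Nr2f2 was called lower with G6. Pdpn averaged 12.10 with G6 and 12.17 in control tissue, Lyve1 12.33 and 12.51, and Reln 10.72 and 11.15. Of these 4, Lyve1 and Pdpn were called above control with DC101, and Pdpn in untreated tissue. The Lyve1 call was lost without array 89, 91 or 92. G6 against untreated gave 3 lower members, Pdpn, Reln and Nr2f2, where 11.4% of all genes were called (2.48% higher and 8.95% lower). G6 against DC101 gave 4 lower, these 3 and Lyve1, where 39.9% of all genes were called (18.3% higher and 21.6% lower). DC101 against untreated gave 0 (11.9% of all genes, 4.83% higher and 7.05% lower), with 0 at an unadjusted p under 0.05 in the limma fit. The groups overlapped for all 7 members in each of these comparisons, beside 0.259%, 4.28% and 2.42% of all genes without overlap.

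Nr2f2 ran from 10.08 to 11.42 (median 10.77) with G6 and from 11.34 to 12.89 (12.31) with DC101, against 10.77 to 12.70 (11.93) untreated. Its highest G6 array, 87, lay above the lowest DC101 array, 93, and all 8 G6 arrays lay below every control array. G6 was 1.06 lower than untreated (SE 0.19, adjusted p = 0.00021), 1.45 lower than DC101 (SE 0.21, adjusted p = 3.1e-07) and 1.38 lower than control (SE 0.19, adjusted p = 2.2e-08). The other 4 probe sets that passed the filter were lower with G6 than untreated as well, by 0.88 to 1.38.

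Pdpn ran from 11.44 to 12.59 (median 12.21) with G6 and from 12.37 to 13.85 (13.33) with DC101, against 12.06 to 13.16 (12.85) untreated. The 4 high DC101 arrays lay above all the others, and arrays 93 and 94 lay within the G6 range. G6 was 0.67 lower than untreated (SE 0.16, adjusted p = 0.0047) and 1.02 lower than DC101 (SE 0.18, adjusted p = 9.5e-06). Fibroblast genes were lower with G6 in 7 of 12 against untreated and in 8 of 12 against DC101, with mean levels of 13.49 to 14.77 with G6 and 14.40 to 15.25 with DC101, against 14.59 to 15.27 untreated, and their part in the Pdpn difference was not tested. Reln ran from 9.49 to 12.27 (median 10.44) with G6 and from 11.14 to 12.16 (11.80) with DC101, against 9.99 to 12.59 (11.78) untreated. It was 0.96 lower than untreated (SE 0.30, adjusted p = 0.026), a call that was lost without any 1 of 7 arrays (82, 83, 84, 74, 75, 77 and 80; adjusted p up to 0.090), and 1.01 lower than DC101 (SE 0.32, adjusted p = 0.0093). Schwann cell genes fell in 4 of 5 against untreated and in 4 of 5 against DC101.

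Lyve1 ran from 11.44 to 13.56 (median 12.26) with G6 and from 12.27 to 15.07 (14.20) with DC101, against 11.94 to 13.92 (13.31) untreated. DC101 arrays 89 to 92 stood at 13.93 to 15.07 and arrays 93 and 94 at 12.47 and 12.27. Lyve1 was 1.48 lower with G6 than with DC101 (SE 0.41, adjusted p = 0.0029), and its second probe set gave -1.76 (adjusted p = 0.00080). Against untreated the differences were -0.82 with G6 (adjusted p = 0.15) and 0.66 with DC101 (adjusted p = 0.29). The macrophage genes averaged 13.36 to 13.77 on DC101 arrays 89 to 92 and 12.43 and 12.58 on arrays 93 and 94, and 13 of 14 were lower with G6 than with DC101.

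RNA integrity differed between the day 60 groups. The ratio of 3' to 5' signal of Actb, which rises as RNA is degraded, ran from 1.81 to 3.03 (median 2.22) with G6 and from 1.17 to 1.56 (median 1.3) with DC101, against 1.58 to 2.57 (1.88) untreated and 1.21 to 1.50 (1.31) in control tissue. The G6 and DC101 ranges did not overlap, so antibody and RNA quality cannot be told apart in that comparison. The untreated day 60 range did not overlap those of DC101 or control either. The same limit therefore holds for DC101 against untreated and for untreated against control at day 60. When both the Actb and the Gapdh ratio entered the fit, no member was called at day 60 for G6 against untreated or for G6 against DC101, with 3 members at an unadjusted p under 0.05 in each. Nr2f2 was then 0.71 lower with G6 than untreated (adjusted p = 0.083) and 0.66 lower than with DC101 (adjusted p = 0.34), and Pdpn 0.51 lower (adjusted p = 0.21) and 0.76 lower (adjusted p = 0.21). Against control, Nr2f2 with G6 was 0.61 lower (adjusted p = 0.19) with the ratios, and the Actb ratios of G6 and control arrays did not overlap either. Over the whole table the probe sets called numbered 64 with the covariates, against 2809 without, for G6 against untreated. For G6 against DC101 they numbered 0 with the covariates (limma, 2981 at an unadjusted p under 0.05), against 10109 without. For DC101 against untreated they numbered 382 with the covariates, against 3310 without, and for untreated against control 3523, against 8798. At day 5 the same covariates ended no call of a member in either antibody comparison with untreated tissue. The Gapdh ratio was at least 0.907 on untreated and 0.900 on G6 arrays of day 5, against at most 0.859 on control arrays. Treatment and RNA quality by Gapdh thus cannot be told apart in untreated or G6 against control at day 5, although the Actb ranges overlapped. The members called there stayed called with the ratios, but without overlap in Gapdh that fit cannot separate the 2.

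**Figure D3:**
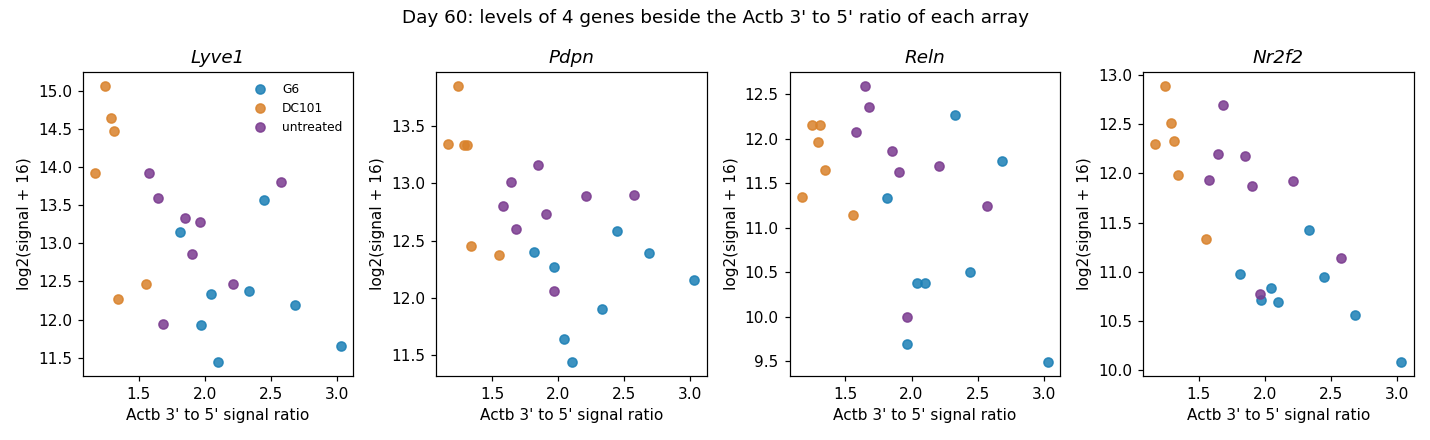
Level of Lyve1, Pdpn, Reln and Nr2f2 at day 60 on each G6, DC101 and untreated array, as log2(signal + 16), against the array's Actb 3' to 5' signal ratio. The DC101 arrays lie at ratios up to 1.56 and the G6 arrays at 1.81 and above, and no G6 array exceeds 11.42 in Nr2f2.

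Prox1 and Mmrn1 split the G6 day 60 arrays. Arrays 86, 87 and 88 stood at 9.30, 9.84 and 8.83 in Prox1 and at 13.08, 13.41 and 12.61 in Mmrn1, whereas the other 5 ran from 4.69 to 6.58 and from 9.15 to 10.77. The same 3 arrays were the highest of the group in the mean of the pan-endothelial genes, at 9.89 to 10.39 against 9.05 to 9.61 on the other 5, and the lowest in Schwann cell genes. They also stood apart over all probe sets. Their median correlation with the rest of the group was 0.906, 0.919 and 0.926, against 0.945 to 0.953 on the other 5. With all arrays Prox1 differed by -0.26 and Mmrn1 by -0.22 from untreated tissue (adjusted p = 0.74 and 0.82). Without the 3 arrays, a choice made after seeing the values, Prox1 was 1.47 lower (adjusted p = 0.0052) and Mmrn1 1.45 lower (adjusted p = 0.030). In Prox1 the other 5 G6 arrays and all but 1 of the 8 untreated arrays lay below the filter level.

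The antibody effect at day 60 against day 20 was tested directly too. With DC101, Nr2f2 changed by 0.96 (SE 0.28, adjusted p = 0.013) and Ephb4 by 0.70 (SE 0.22, adjusted p = 0.023), 2 members beside 17.9% of all genes called (8.72% higher). The same term with the RNA ratios gave 0.24 (adjusted p = 0.75) and 0.39 (adjusted p = 0.47), and without untreated arrays 51 and 52 it gave 0.83 (adjusted p = 0.054) and 0.51 (adjusted p = 0.12). With G6, 0 members were called (0.0748% of all genes), and 2 had an unadjusted p under 0.05 in the limma fit.

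Against control, Mmrn1 was higher in all 6 antibody groups. The differences with G6 were 2.17, 3.30 and 2.14 at days 5, 20 and 60, and with DC101 1.64, 2.67 and 1.70 (adjusted p from 4.6e-07 to 0.016). Every array of these groups lay above every control array. At day 60 the G6 difference was 0.91 (adjusted p = 0.10) without arrays 86, 87 and 88 and 1.43 (adjusted p = 0.27) with the RNA ratios, and the DC101 call was lost without array 89 or 93. Prox1 exceeded control by 1.44 (adjusted p = 0.0034), 2.50 (adjusted p = 4.2e-06) and 0.90 (adjusted p = 0.065) with G6 at the 3 days. With DC101 it did so by 0.76 (adjusted p = 0.13), 2.11 (adjusted p = 6.7e-05) and 0.87 (adjusted p = 0.16). In Prox1 no control array and no day 5 array of either antibody reached the filter level. The called day 5 difference with G6 thus lies among low signals, which MAS5 leaves noisy. In all, G6 against control gave 3, 3 and 2 called members at days 5, 20 and 60 (40.9%, 34.4% and 48.5% of all genes), and DC101 gave 4, 3 and 3 (45.5%, 29.9% and 21.3%). Groups did not overlap for 2 members with G6 at each day (11%, 4.1% and 8.76% of all genes) and for 1, 2 and 2 with DC101 (14.6%, 2.25% and 4.66%).

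Mmrn1 and Prox1 were each other's closest gene among the 14697 tested, predicted and clone genes passed over. Their correlation was 0.88 over 78 arrays and 0.82 after the group means were removed. Scn3a and Tc2n were next for Prox1 (0.80 and 0.79), and Tc2n and Mucl1 for Mmrn1 (0.82 and 0.81). These arrays share tissue, treatment and RNA quality within groups, so the correlations are descriptions. The other lymphatic genes did not track this pair closely: Prox1 correlated with Reln at 0.59, with Lyve1 at 0.22 and with Pdpn at 0.05. The group means of Mmrn1 rank untreated day 20, G6 day 20 and DC101 day 20 highest and control lowest, as do those of Prox1.

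**Figure D4:**
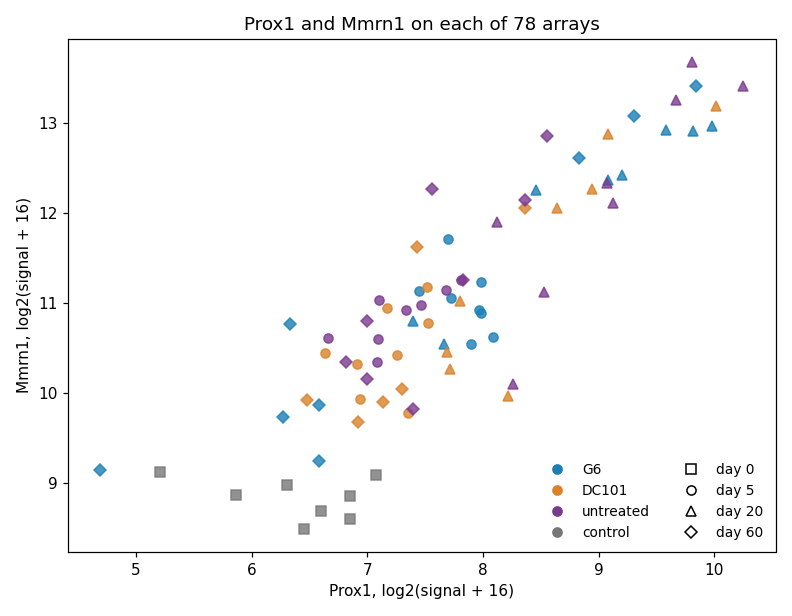
Mmrn1 against Prox1, both as log2(signal + 16), on each of 78 arrays; colours are treatments and shapes are days. The 2 genes rise together (correlation 0.88), most day 20 arrays lie at the upper right with G6 day 60 arrays 86, 87 and 88, and the control arrays lie at the bottom.

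The remaining members had other nearest genes. Lyve1 was closest to Gda (0.83), Cd302 (0.81) and Fcgrt (0.79). Over all arrays it correlated at 0.62 with the mean of the 12 fibroblast genes and at 0.61 with that of the 12 lymphatic surface and chemokine genes. With the 14 macrophage genes it did so at 0.40, and with the 18 pan-endothelial genes at 0.12. After removal of group means the values were 0.59 (fibroblast), 0.78 (lymphatic surface and chemokine), 0.81 (macrophage) and 0.28 (pan-endothelial). Ephb4 was closest to Gjc1 (0.89), Prkd2 (0.89) and Exoc3l2 (0.88), and correlated over all arrays at 0.86 with the pan-endothelial mean and at 0.86 with that of the 10 lymphatic transcription and valve genes. With the 14 arterial genes it correlated at 0.85, and with the 14 venous and venular genes at 0.76. After removal of group means these 4 values were 0.68, 0.57, 0.64 and 0.57. The pan-endothelial mean correlated at 0.34 with Prox1 and 0.32 with Mmrn1 over all arrays, and at 0.49 and 0.53 after removal of group means. After that removal the 6 genes of the VEGF-C axis correlated most with both, at 0.72 with Prox1 and 0.73 with Mmrn1. Over all arrays the mammary epithelium mean correlated at -0.55 with Prox1 and -0.66 with Mmrn1, and the keratinocyte mean at 0.42 and 0.57. Reln was closest to Gpm6b (0.85), Ccdc3 (0.84) and S100b (0.80). Over all arrays it correlated at 0.63 with both the fibroblast and the Schwann cell mean and at 0.52 with the lymphatic surface and chemokine mean. After removal of group means the order changed, with 0.50 for fibroblast, 0.37 for Schwann cell and 0.64 for lymphatic surface and chemokine genes. Pdpn was closest to Reck (0.77), C1ra (0.75) and Zfpm2 (0.74). It correlated over all arrays at 0.60 with the fibroblast mean and at 0.54 with the lymphatic surface and chemokine mean, and at 0.49 and 0.55 after removal of group means. Nr2f2 was closest to Meox2 (0.85), Lrrc75a (0.84) and Sparcl1 (0.83), and of the lists it correlated most with the 14 venous and venular genes (0.77), then with the 10 pericyte and smooth muscle genes (0.67).

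The 10 member probe sets that are not the brightest of their gene served as a check on signal. The second Lyve1 probe set correlated at 0.95 with the first over 78 arrays, and the 4 other Nr2f2 probe sets that passed the filter at 0.68 to 0.94. The 5 that failed the filter, 2 of Prox1 and 1 each of Mmrn1, Reln and Nr2f2, exceeded the filter level on no array, so Prox1, Mmrn1, Reln, Pdpn and Ephb4 each rest on 1 probe set. Gene positions on GRCm38.p6 are chr1:190118035-190170827 for Prox1, chr7:110850607-110862953 for Lyve1, chr4:143267409-143299564 for Pdpn, chr6:60944317-60989378 for Mmrn1, chr5:21884454-22344705 for Reln, chr7:70351946-70366746 for Nr2f2 and chr5:137350109-137374522 for Ephb4.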

How the data were processed

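Gene expression was measured on 78 Affymetrix mouse arrays, 1 per sample. The deposited file holds a linear intensity, the MAS5 signal of each probe set, made by the authors in GCOS 1.3, per the submitters' processing notes. Arrays had been scaled: a trimmed mean over the middle 96% came to 1500 on each, so a change in total RNA per cell is scaled away, and MAS5 leaves low signals noisy. Arrays give no counting depth, and their number limits the precision. The platform annotation gave 1 gene symbol to 34958 of 45101 probe sets, several to 932 and none to 9211.

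From these values log2(signal + 16) was taken. Probe sets with a signal above 331 (the 40th percentile) on 6 or more arrays were kept, which left 26696, and 14697 genes whose brightest probe set (highest mean over all arrays) passed. Groups came from the labels. limma 3.58.1 in R 4.3.3 (lmFit, eBayes with trend) gave 20 comparisons and 4 differences between antibody effects, each two-sided. P-values were adjusted by Benjamini-Hochberg over those 26696. A fold of at least a stated size uses the filter level where all arrays of the dimmer group lay below it. The fit was tested on simulated data.

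The members and the 14 context lists (165 entries, 156 matched, 154 tested) were chosen with earlier results of these data known. Named genes are the members, the 3 genes closest to each over all arrays (predicted and clone genes passed over), up to 3 called genes of largest change per list and comparison, and Efnb2, Flt4, Vegfc and Vegfa. The alternatives tried were other pseudocounts, no filter, quantile normalization, brightest or averaged probe sets, only the groups compared, array weights, RNA 3' to 5' ratios of the Actb and Gapdh control probe sets as covariates, adjacent arrays averaged, a 2-fold minimum and arrays left out. Promoter sequences came from RefSeq on GRCm38.p6.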

Additional observations from a re-analysis of the deposited data

Results flagged for a closer look

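The lowest array of a group lay far from the others for 2 of the 70 combinations of gene and group examined, where chance alone flags about 1 in 20. Reln on the last control array by running number stood at 10.67, against a group median of 11.22. Ephb4 on G6 day 5 array 16 stood at 9.76, against a group median of 10.56.

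The difference between antibody and untreated tissue changed between days in 5 of the 28 member tests. Of all genes, 9.19% were called for the change with G6 and 1.91% for that with DC101 between days 5 and 20, and 0.0748% with G6 and 17.9% with DC101 between days 20 and 60. From day 5 to day 20, the Pdpn difference changed by -1.10 with G6 (limma, adjusted p = 0.0016) and by -1.26 with DC101 (adjusted p = 0.00046), and the Reln difference changed by -1.76 with G6 (adjusted p = 0.0048). From day 20 to day 60 the DC101 difference changed by 0.96 for Nr2f2 (adjusted p = 0.013) and by 0.70 for Ephb4 (adjusted p = 0.023), against 0.24 and 0.39, neither called, with the RNA ratios as covariates.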

How the results depend on the processing

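Over the 7 genes and 24 comparisons, 56 values were called with the main settings. A pseudocount of 1, no filter and quantile normalization each ended 1 of these calls, a pseudocount of 64 and the use of brightest probe sets alone ended 0, and array weights ended 0 and added 15. The RNA ratios as covariates ended 14 and averaging of adjacent arrays ended 10. The cause of these changes was not tested.

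The number of members called moved by more than 1.5 times as follows. In untreated against control at day 20 it was 3 without arrays 51 and 52, and 3 with a 2-fold minimum, where 5 were called. A 2-fold minimum also gave 1 for G6 against untreated at day 5, 3 for untreated day 20 against day 5, and 1 for DC101 against control at day 5. For G6 against untreated at day 20 it was 2 with array weights or averaged probe sets, and 0 with only the groups compared, with adjacent arrays averaged, without arrays 51 and 52 and with a 2-fold minimum (1 or 2 at an unadjusted p under 0.05 in the limma fit for all but the last). For DC101 against untreated it was 3 at day 5 and 3 at day 60 with array weights, and at day 20 it was 1 with a pseudocount of 64 or array weights and 2 with brightest or averaged probe sets. For G6 against untreated at day 60 it was 1 with only the groups compared, adjacent arrays averaged or a 2-fold minimum, 0 with the RNA ratios and 5 without G6 arrays 86, 87 and 88. G6 against DC101 gave 3 with only the groups compared and 0 with adjacent arrays averaged at day 5, and 0 with the RNA ratios at day 60. G6 against control gave 6 with only the groups compared at day 5, 5 with averaged probe sets at day 20 and 0 with the RNA ratios at day 60. The change of the G6 difference at day 60 against day 20 gave 1 without arrays 86, 87 and 88. The change of the DC101 difference gave 2 with array weights at day 20 against day 5. At day 60 against day 20 it gave 1 with only the groups compared, 4 under array weights, and 0 with the RNA ratios, with adjacent arrays averaged, without arrays 51 and 52 and with a 2-fold minimum. Prox1 in G6 against DC101 at day 60 reversed to -1.18 (adjusted p = 0.012) without arrays 86, 87 and 88, against 0.03 with all arrays. Every array left in that comparison lay below the filter level in Prox1.

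When each array was left out in turn, the count ran from 0 to 2 for G6 and for DC101 against untreated at day 20, from 0 to 1 for DC101 against untreated at day 60, from 1 to 3 for DC101 against control at day 60 and from 1 to 3 for the change of the DC101 difference at day 60 against day 20. No paired analysis was possible because the running numbers in the titles are not shared between groups. The arrays limit Prox1 most, since its signal passed the filter level on 20 of 78 arrays.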
